A study of Mus musculus with 16 samples.

Results

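The 10 genes described here, Mrc1, Cd163, Lyve1, Timd4, Folr2, Retnla, Mgl2, Clec10a, Cbr2 and F13a1, are markers of resident and alternatively activated macrophages. They were picked by name from the 37310 genes of the count table, with earlier results of these data known, so counts over them are descriptions. Their transcripts were measured by RNA-seq in F4/80+ adipose tissue macrophages (ATMs) taken from the epididymal fat of male mice that were between 7 and 10 weeks old when the diet began. All mice ate a high-fat diet (HFD) with 60% fat, for 4 weeks (short-term, ST-HFD) or 12 weeks (long-term, LT-HFD), so no library comes from lean mice. At each duration 4 libraries are labelled wild-type (WT) and 4 are labelled KO (IRF5-KO), which makes 16 libraries in 4 groups. IRF5-KO mice came from a cross of IRF5 flox/flox mice with LysM-Cre mice, in which Cre is expressed from the Lyz2 locus. Recombination is therefore limited to cells that express Lyz2, which besides macrophages include monocytes and neutrophils. Which alleles the WT mice carried is not given in the sources used here. The study asked what loss of IRF5, a transcription factor of inflammatory macrophages, does to ATMs early and late in diet-induced obesity.

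Tissue-resident macrophages settle in a tissue and take up dying cells, sugars, haemoglobin and other cargo through scavenger and lectin receptors. Alternative activation is the programme that macrophages adopt under IL-4 or IL-13, which act through a shared receptor chain and the transcription factor STAT6. In adipose tissue, resident macrophages line the vessels and the spaces between fat cells, while obesity adds macrophages that surround dying fat cells and carry genes of lipid uptake. Among the 10 genes, Mrc1 (the mannose receptor CD206), Cd163 (a scavenger receptor for haemoglobin bound to haptoglobin), Lyve1 (a hyaluronan receptor), Timd4 (a phosphatidylserine receptor) and Folr2 (a folate receptor) encode surface receptors. Retnla encodes the secreted protein RELM-alpha, a classic target of IL-4 in mouse macrophages. Mgl2 and Clec10a encode paired galactose-type lectins, Cbr2 a carbonyl reductase and F13a1 the catalytic subunit of coagulation factor XIII, a transglutaminase.

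On the GRCm38 assembly (mm10), Mgl2 (chr11:70130329-70137550, + strand) and Clec10a (chr11:70156197-70170834, + strand) are neighbours. Cbr2 (chr11:120729489-120732114, - strand) and Timd4 (chr11:46810800-46844332, + strand) lie elsewhere on the same chromosome. The others are Mrc1 (chr2:14229392-14332057, + strand), Cd163 (chr6:124304656-124330527, + strand), Lyve1 (chr7:110850607-110863239, - strand), Folr2 (chr7:101839988-101857194, - strand), F13a1 (chr13:36867178-37050244, - strand) and Retnla (chr16:48842551-48844461, + strand). All are protein-coding, and their counts come from exons. Of the 8 members with a RefSeq promoter window (GRCm38.p6, 250 bases before to 50 after the start), 3 are shown. Retnla and Cbr2 are the members whose windows held a STAT6-type match, and Mgl2, the member that followed Retnla most closely from library to library, held no match to any motif searched. Windows are printed 5′ to 3′ on the strand of the gene, and capitals mark the motif matches.
Retnla promoter, chr16:48842359-48842658, + strand: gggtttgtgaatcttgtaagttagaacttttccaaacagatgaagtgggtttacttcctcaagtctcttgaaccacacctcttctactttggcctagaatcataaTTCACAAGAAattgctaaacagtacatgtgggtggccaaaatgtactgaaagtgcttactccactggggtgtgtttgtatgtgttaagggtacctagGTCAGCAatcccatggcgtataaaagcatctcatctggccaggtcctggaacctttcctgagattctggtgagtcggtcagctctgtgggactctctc
Cbr2 promoter, chr11:120731972-120732271, - strand: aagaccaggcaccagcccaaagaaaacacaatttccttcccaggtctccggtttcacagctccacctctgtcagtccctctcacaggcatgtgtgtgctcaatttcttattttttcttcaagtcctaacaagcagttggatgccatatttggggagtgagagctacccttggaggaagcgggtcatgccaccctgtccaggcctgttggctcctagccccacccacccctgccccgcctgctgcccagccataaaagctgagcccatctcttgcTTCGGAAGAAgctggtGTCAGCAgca
Mgl2 promoter, chr11:70130107-70130406, + strand: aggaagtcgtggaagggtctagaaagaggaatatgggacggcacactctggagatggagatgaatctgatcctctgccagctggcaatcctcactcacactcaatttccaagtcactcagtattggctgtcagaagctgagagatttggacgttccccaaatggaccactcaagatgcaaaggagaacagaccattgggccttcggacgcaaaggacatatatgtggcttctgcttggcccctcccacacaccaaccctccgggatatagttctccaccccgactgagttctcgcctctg

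Both strands were searched for a STAT6-type motif (TTCNNNNGAA), an interferon-type motif (GAAANNGAAA) and a MAF-type motif (TGCTGAC). In the Retnla window the STAT6-type match spanned bases -145 to -136 from the start, and the MAF-type match, on the minus strand of the window, bases -48 to -42. In the Cbr2 window the STAT6-type match spanned bases 24 to 33 after the start and the MAF-type match bases 40 to 46. Timd4 held a MAF-type match at -45 to -39, and no member window held the interferon-type motif. Of 32851 promoter windows of this length, 6.95% held the STAT6-type motif, 3.44% the interferon-type motif and 4.67% the MAF-type motif. A match is a description of the letters and not of binding.

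Libraries held between 3279332 and 4958131 counts. The 3 features with the most counts, the microRNA entry mmu-mir-689-2 and both mitochondrial ribosomal RNAs, took 18.6 to 24.1% of the counts after short feeding and 26.1 to 34.5% after long feeding. Irf5 itself stood no lower where the label was IRF5-KO, at 250 to 274 CPM (counts scaled to a fixed library total, after correction by the trimmed mean of M-values, TMM) against 203 to 252 CPM in WT on ST-HFD, and 206 to 253 against 170 to 213 CPM on LT-HFD. A count over all exons does not show whether part of the gene was removed, so it is no check of the deletion, and below IRF5-KO means the libraries so labelled. Lyz2, the gene that carries Cre, differed by -0.97 on the log2 scale on ST-HFD (edgeR adjusted p = 0.106) and fell by 1.04 on LT-HFD (edgeR adjusted p = 0.0484), without overlap between genotypes at either duration. Adgre1, which encodes F4/80, was present in every library at 507 to 995 CPM.

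All 10 members were detected in all 16 libraries and entered every test. Per kilobase of exon sequence in WT ST-HFD, Retnla was the most abundant at 2493 ± 1515 CPM per kb (SD, n = 4), and no other member reached its mean. Mrc1 followed at 384 ± 33.6 CPM per kb and F13a1 at 334 ± 48.4 CPM per kb, which lie within their spread of each other. Cbr2 (272 ± 48.1), Mgl2 (265 ± 131), Folr2 (223 ± 24.3), Cd163 (222 ± 61.4) and Lyve1 (204 ± 54.8 CPM per kb) formed a middle range whose neighbours did not differ beyond their spread. Clec10a stood lower at 107 ± 2.72 CPM per kb. Timd4 was at 9.92 ± 3.43 CPM per kb and gave only 9 to 37 counts a library in IRF5-KO LT-HFD. Members also differed in how much they varied between libraries of 1 group. The highest WT ST-HFD library exceeded the lowest by 5.25-fold for Retnla and 3.42-fold for Mgl2, against 1.24-fold for Mrc1 and 1.06-fold for Clec10a.

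**Figure D1:**
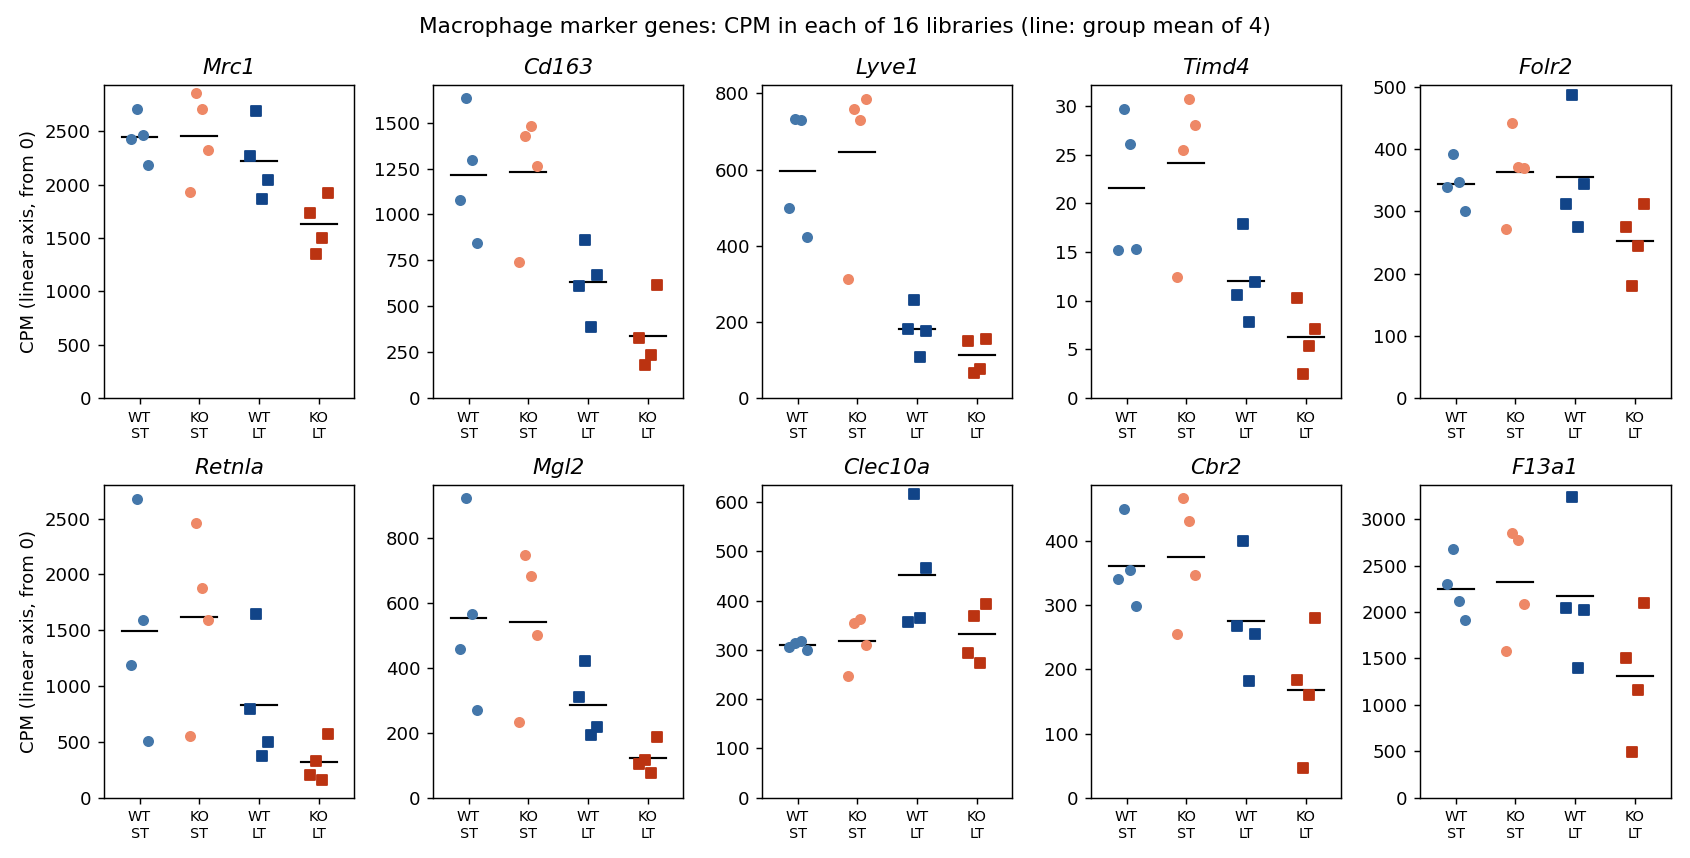
Level of each marker gene in CPM (linear axis from 0) in each of the 16 libraries, by genotype (KO is IRF5-KO) and diet duration (ST is 4 weeks, LT is 12 weeks). Points are libraries and lines are means of 4, and on ST-HFD the genotypes overlap for all 10 genes.

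On ST-HFD the mean levels of the markers lay close together in WT and IRF5-KO. Log2 fold changes of IRF5-KO over WT ran from -0.04 for Mgl2 to 0.16 for Timd4, with 8 members above 0 and 2 below. The median was 0.04, against 0.00 over all genes. Mrc1 was at 2445 ± 214 CPM in WT and 2455 ± 415 CPM in IRF5-KO (SD, n = 4). Cd163 was at 1214 ± 335 and 1229 ± 338 CPM. Retnla was at 1493 ± 907 and 1622 ± 800 CPM. These differences are small beside the spread within either group. No member passed the test (edgeR quasi-likelihood, Benjamini-Hochberg adjusted p = 0.9998 for each), none reached an unadjusted p under 0.05 and none had groups that did not overlap. Over the 10958 genes tested the corresponding shares were 0.00913%, 1.84% and 1.47%, and 49.3% of genes lay below 0. The replicate number was also used as a block, although no label gives a pairing. With this block 2 genes of the whole table were called in place of 1, and still no member. How large a difference could be missed varied by gene. The 95% interval of the log2 fold change spanned -0.23 to 0.29 for Clec10a, -0.30 to 0.29 for Mrc1 and -0.93 to 1.17 for Retnla.

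On LT-HFD every one of the 10 markers had a lower mean in IRF5-KO than in WT, in receptors, lectins, secreted protein and enzymes alike, although no single gene passed the corrected test. Log2 fold changes ran from -1.39 for Retnla to -0.44 for Clec10a with a median of -0.73, against a median of 0.00 and 49.9% of genes below 0 over the 10987 genes tested. Adjusted p-values were 0.853 to 0.854 (edgeR), and 0.0182% of all genes were called. Unadjusted p-values were under 0.05 for 8 of the 10, against 3.50% of all genes on the lower side.

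The galactose-type lectin Mgl2 showed the clearest separation. Its levels in WT LT-HFD were 311, 422, 193 and 217 CPM in replicates 1 to 4, and in IRF5-KO LT-HFD 104, 118, 76.1 and 186 CPM. The highest IRF5-KO library was below the lowest WT library, which held for no other member and for 1.67% of all genes on the lower side. The log2 fold change was -1.24 (SE 0.29, 95% interval -1.88 to -0.61), or 2.37-fold lower. Its unadjusted p of 0.00114 was rank 12 of all genes by edgeR, with an adjusted p of 0.853. Mgl2 was called under DESeq2 (adjusted p = 0.0126) and without the filter on low counts (edgeR adjusted p = 0.0171). It was not called under any other setting tried, and the call therefore depends on the method.

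Retnla, the IL-4 target, had the largest fold difference and the largest standard error of the 10. WT LT-HFD libraries held 793, 1648, 371 and 497 CPM, and IRF5-KO LT-HFD libraries 208, 325, 162 and 575 CPM. Replicate 4 of IRF5-KO was above 2 of the WT libraries, so the groups overlapped. The log2 fold change was -1.39 (SE 0.47, 2.61-fold lower, edgeR unadjusted p = 0.0131, adjusted p = 0.853). The partner lectin Clec10a was at 451 ± 121 CPM in WT and 333 ± 57.1 CPM in IRF5-KO (SD, n = 4).

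Among the surface receptors, the haemoglobin scavenger Cd163 was at 631 ± 195 CPM in WT LT-HFD and 340 ± 194 CPM in IRF5-KO LT-HFD, a log2 fold change of -0.90 (SE 0.34). Mrc1 was at 2217 ± 357 and 1627 ± 254 CPM, a log2 fold change of -0.45 (SE 0.15). Lyve1 was at 181 ± 61.4 and 112 ± 47.5 CPM, Folr2 at 355 ± 93.1 and 252 ± 56.1 CPM, and Timd4 at 12.0 ± 4.23 and 6.28 ± 3.26 CPM. In each of these receptors the groups overlapped by at least 1 library. Cbr2, at 276 ± 90.6 and 167 ± 96.0 CPM, and F13a1, at 2177 ± 766 and 1316 ± 672 CPM, were the members with unadjusted p-values over 0.05 (edgeR, 0.0967 and 0.0672). Replicate 2 of IRF5-KO LT-HFD stood far down for both, at 46.6 CPM for Cbr2 and 494 CPM for F13a1.

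The LT-HFD difference leaned on single libraries. Without replicate 2 of WT LT-HFD, which was the highest WT library for all 10 members and also had the largest share of counts in the top 3 features (34.5%), 2 of the 10 had unadjusted p under 0.05. The number was 3 without replicate 3 of IRF5-KO and 4 without its replicate 2, and it was 10 without its replicate 4. The direction held in every one of these fits for all 10 members.

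**Figure D2:**
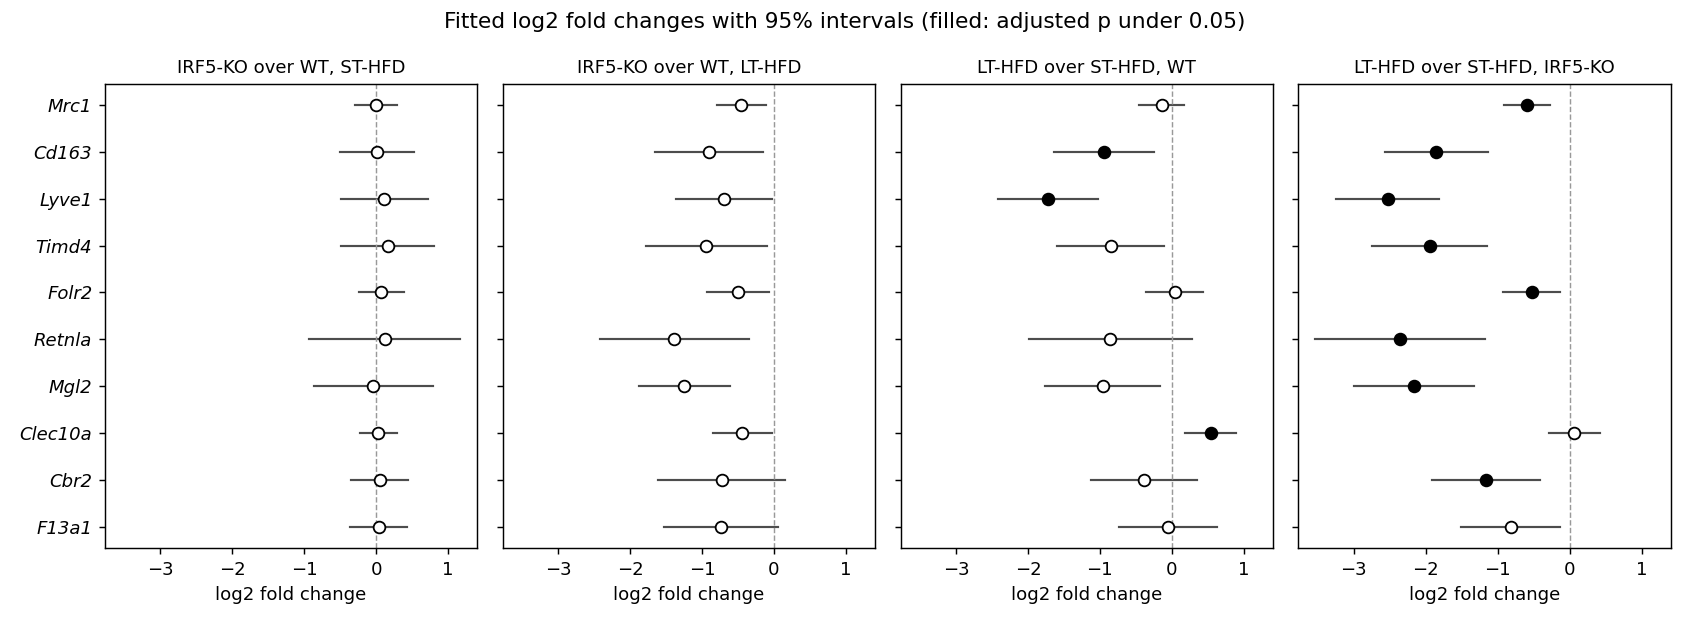
Fitted log2 fold change (points) with its 95% interval (lines) for each marker gene in each comparison of groups, from edgeR. Filled points have an adjusted p under 0.05, and the panels show values around 0 on ST-HFD, all 10 below 0 on LT-HFD, and the fall with duration in IRF5-KO.

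With longer feeding, Lyve1 and Cd163 fell and Clec10a rose in WT, and 8 of the 10 markers fell in IRF5-KO, while the interaction, which tests the difference between genotypes, passed for none (edgeR adjusted p = 0.969 for each). The direction between durations, and the duration to which each genotype result belongs, rest on the weeks in the library labels. In a display of Irf5 in the study the durations appear in the opposite order of level, and the files could not settle which is right. In WT, 2 members fell and 1 rose of the 10, against 13.2% of the 11560 genes tested called lower and 12.1% called higher, so the WT counts are near those of all genes. In IRF5-KO, 8 fell and none rose, against 17.2% called lower and 15.6% called higher. Members below 0 numbered 8 in WT and 9 in IRF5-KO, beside 48.1% and 46.9% of all genes. Medians of the members were -0.62 in WT and -1.51 in IRF5-KO, against 0.02 and 0.04 over all genes. The contrasts use separate sets of libraries but share 1 estimate of the spread. In bulk RNA, fewer cells that carry a marker and less of its RNA in each cell cannot be told apart.

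Lyve1, which marks perivascular resident macrophages, fell the most in both genotypes in the fit of all 16 libraries. When single libraries were left out, its log2 fold change in IRF5-KO ranged from -2.76 to -2.34. That of Retnla ranged from -2.81 to -2.08, so their order in IRF5-KO was not fixed. WT ST-HFD libraries held 499, 733, 731 and 422 CPM and WT LT-HFD libraries 182, 259, 108 and 176 CPM, with no overlap. IRF5-KO ST-HFD libraries held 312, 759, 730 and 786 CPM and IRF5-KO LT-HFD libraries 150, 65.6, 77.0 and 156 CPM, again with no overlap. The fall was 3.29-fold in WT (log2 -1.72, SE 0.33, edgeR adjusted p = 9.2e-04) and 5.77-fold in IRF5-KO (log2 -2.53, SE 0.34, edgeR adjusted p = 2.8e-05). Lyve1 is also a gene of lymphatic endothelium, whose markers Prox1, Flt4, Mmrn1 and Ccl21a summed to between 0 and 4.85 CPM in any library.

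Cd163 fell in both genotypes, from 1214 ± 335 to 631 ± 195 CPM in WT (log2 -0.94, SE 0.33, edgeR adjusted p = 0.0440) and from 1229 ± 338 to 340 ± 194 CPM in IRF5-KO (log2 -1.86, SE 0.34, edgeR adjusted p = 4.8e-04; all SD, n = 4). The WT call was lost, with adjusted p of 0.0513 to 0.129 (edgeR), without replicate 1, 2 or 3 of WT ST-HFD, replicate 1, 3 or 4 of WT LT-HFD, replicate 4 of IRF5-KO ST-HFD or replicate 1 of IRF5-KO LT-HFD, each left out alone. It was also lost with upper-quartile factors (edgeR adjusted p = 0.0595).

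Another 6 members passed the test in IRF5-KO and not in WT. Retnla fell by 2.35 on the log2 scale (SE 0.56, edgeR adjusted p = 0.0038), from 1622 ± 800 to 318 ± 185 CPM. Mgl2 fell by 2.16 (SE 0.39, edgeR adjusted p = 4.7e-04), and its IRF5-KO libraries did not overlap between 234 to 748 CPM on ST-HFD and 76.1 to 186 CPM on LT-HFD. Timd4 fell by 1.94 (SE 0.38, edgeR adjusted p = 8.1e-04), Cbr2 by 1.16 (edgeR adjusted p = 0.0189), Mrc1 by 0.59 (edgeR adjusted p = 0.0058) and Folr2 by 0.53 (edgeR adjusted p = 0.0394). In WT the log2 fold changes of these genes were -0.85 for Retnla (edgeR adjusted p = 0.273), -0.96 for Mgl2 (0.0746), -0.85 for Timd4 (0.0911), -0.39 for Cbr2, -0.14 for Mrc1 and 0.04 for Folr2. Without the filter on low counts, Mgl2 and Timd4 were called in WT as well (edgeR adjusted p = 0.0158 and 0.0435). Mgl2 was also called in WT with the replicate number as a block (0.0156), and without replicate 4 of WT ST-HFD (0.0289), replicate 1 of IRF5-KO ST-HFD (0.0421) or replicate 2 of WT LT-HFD (0.0431). With the replicate number as a block, which does not pair these libraries, Mrc1, Cbr2 and Folr2 were not called in IRF5-KO (edgeR adjusted p = 0.0707, 0.0879 and 0.121), at log2 fold changes of -0.59, -1.31 and -0.53. The Folr2 call was lost without replicate 2, 3 or 4 of IRF5-KO ST-HFD or replicate 2 or 3 of IRF5-KO LT-HFD (edgeR adjusted p up to 0.127), with upper-quartile factors (0.0873) and in a fit of the IRF5-KO libraries alone (0.0511), and that of Cbr2 without replicate 2 of IRF5-KO ST-HFD (0.0538). F13a1 passed in neither genotype, with log2 fold changes of -0.05 in WT and -0.82 in IRF5-KO (edgeR adjusted p = 0.0626). In IRF5-KO it was called under DESeq2 (adjusted p = 0.0424), without the filter on low counts (edgeR adjusted p = 0.0158), and without replicate 1 of IRF5-KO ST-HFD or replicate 4 of IRF5-KO LT-HFD (0.0366 and 0.0147). Groups did not overlap on the lower side for 5 members in IRF5-KO (Mrc1, Cd163, Lyve1, Timd4 and Mgl2) and for Lyve1 alone in WT, against 15.2% and 13.8% of all genes.

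Clec10a went the other way. WT ST-HFD libraries held 306, 314, 318 and 300 CPM, the tightest values of any member, and WT LT-HFD libraries held 357, 617, 364 and 467 CPM. The groups did not overlap, as for 12.3% of all genes on the higher side, and Clec10a rose by 0.54 on the log2 scale (SE 0.17, 1.46-fold, edgeR adjusted p = 0.0240). In IRF5-KO it was at 318 ± 53.4 CPM on ST-HFD and 333 ± 57.1 CPM on LT-HFD, a log2 fold change of 0.06 with a 95% interval of -0.29 to 0.42. The WT call was lost without replicate 4 of WT ST-HFD (adjusted p = 0.0507) and without replicate 2 or 4 of WT LT-HFD (0.106 and 0.0558, edgeR).

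These falls were relative to the rest of the RNA in each library, which itself shifted with duration. Mitochondrially encoded genes took 8.94 to 15.5% of counts after short feeding and 14.9 to 19.6% after long feeding, and their part in the differences was not tested. Genes of macrophage identity (Adgre1, Csf1r, Cd68, Itgam, Fcgr1 and Cd14) summed to 3837 to 4246 CPM on ST-HFD and 2647 to 3341 CPM on LT-HFD. The 6 did not move as 1. Csf1r and Itgam fell in both genotypes, by 0.62 and 0.56 on the log2 scale in WT and by 0.88 and 0.59 in IRF5-KO. In IRF5-KO, Cd14 fell by 0.38, whereas Adgre1, the gene of the sort marker, rose by 0.46 and Fcgr1 rose by 0.44 (edgeR adjusted p = 0.0235 and 0.0445). Fibroblast genes (Pdgfra, Dcn, Col1a1, Col3a1, Lum and Dpt) summed to 573 to 1373 CPM on ST-HFD and 2546 to 7548 CPM on LT-HFD, and all 6 rose in each genotype. With libraries scaled to the macrophage identity genes, an alternative added after the data were seen, the log2 fold changes of all genes moved up by a median of 0.42 in WT and 0.46 in IRF5-KO. Calls over the whole table, which were 1527 lower and 1401 higher in WT and 1986 lower and 1801 higher in IRF5-KO, became 534 lower and 4484 higher, and 739 lower and 4987 higher. With upper-quartile scaling they were 1215 lower and 1786 higher in WT, and 1554 lower and 2462 higher in IRF5-KO. On the macrophage identity scale the members' medians were -0.22 and -1.07. Lyve1 fell and Clec10a rose in WT, whereas Cd163 lost its call there and Mrc1, Cbr2 and F13a1 turned to values above 0. In IRF5-KO, Lyve1, Retnla, Mgl2, Timd4 and Cd163 fell, Clec10a rose, and Mrc1, Folr2 and Cbr2 lost their calls. The part of fibroblast RNA in the differences was not tested.

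**Figure D3:**
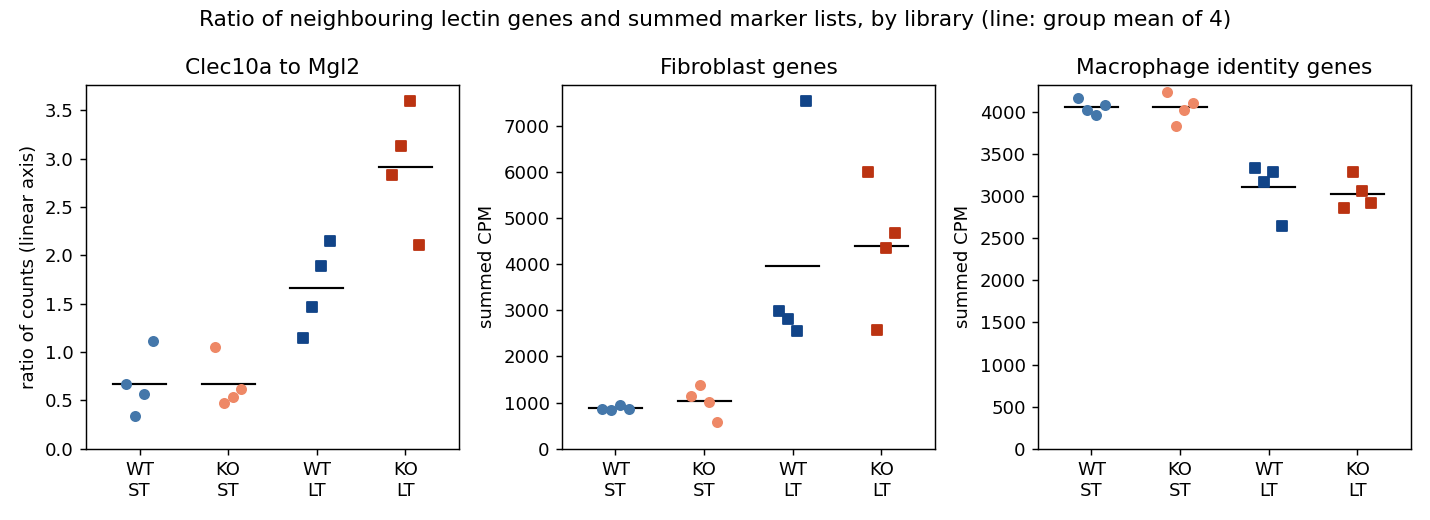
By library and group, the ratio of Clec10a counts to Mgl2 counts (left), and the summed CPM of 6 fibroblast genes (middle) and 6 macrophage identity genes (right), all on linear axes from 0, with lines at the mean of 4. The ratio and the fibroblast sum lie higher on LT-HFD than on ST-HFD in each genotype, and the macrophage identity sum lies lower.

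The interaction asked whether the change with duration differed between genotypes. Its estimate was negative for 10 of the 10 members, from -1.50 for Retnla to -0.45 for Mrc1, with a median of -0.79 against -0.01 over all genes and 51.2% of genes below 0. None passed (edgeR adjusted p = 0.969 for each), and no gene of the 11560 did, so the called share was 0%. Over all genes 454 had an unadjusted p under 0.05, and DESeq2 called none either. Unadjusted p-values were under 0.05 for 4 members, namely Mgl2 (log2 -1.21, SE 0.54, edgeR unadjusted p of 0.0378), Folr2, Mrc1 and Timd4, against 2.29% of all genes on the lower side. That number moved with single libraries, to 0 without replicate 1 or 4 of WT ST-HFD, replicate 2 or 3 of IRF5-KO ST-HFD, replicate 2 of WT LT-HFD or replicate 3 of IRF5-KO LT-HFD, and to 9 without replicate 4 of IRF5-KO LT-HFD. A steeper fall in IRF5-KO than in WT was thus not established for any single marker.

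Clec10a and Mgl2, which lie side by side and encode lectins of the same family, stood in a different ratio at the longer duration. In WT ST-HFD the ratio of Clec10a to Mgl2 counts was 0.666, 0.340, 0.561 and 1.11, and in WT LT-HFD 1.15, 1.46, 1.89 and 2.15. In IRF5-KO ST-HFD it was 1.05, 0.474, 0.531 and 0.617, and in IRF5-KO LT-HFD 2.83, 3.13, 3.60 and 2.11. Each LT-HFD library was above each ST-HFD library of its genotype. The geometric mean of the ratio was 2.63-fold higher on LT-HFD in WT and 4.50-fold higher in IRF5-KO. Between genotypes it was 1.77-fold higher in IRF5-KO on LT-HFD, where the groups overlapped, and 1.04-fold higher on ST-HFD. The ratio was chosen after its values were seen, so these values are a description and no test of them is given. It does not depend on how libraries were scaled, and 13.1% of the 50-base stretches of Mgl2 and 9.02% of those of Clec10a also occur in another gene, mainly in each other.

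Within a group the markers varied together from library to library. After the group mean was taken from each library on the log2(CPM + 1) scale, all 45 pairs of members correlated positively over the 16 libraries, with Pearson's r from 0.316 (Clec10a with Cbr2) to 0.986 (Cbr2 with F13a1) and a median of 0.813. A member's median r with all other genes was between 0.01 and 0.03. Retnla and Mgl2 formed the other tight pair, at r of 0.980, and Lyve1 and Timd4 reached 0.926. Libraries share depth and scaling, so these values are descriptions. In each group the same few libraries stood at the ends. Replicate 1 of IRF5-KO ST-HFD was the lowest of its group for 10 of the 10 members, replicate 4 of WT ST-HFD for 9 and replicate 3 of WT LT-HFD for 9. Replicate 2 of WT LT-HFD was the highest for all 10, and replicate 4 of IRF5-KO LT-HFD and replicate 2 of WT ST-HFD for 9 each.

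**Figure D4:**
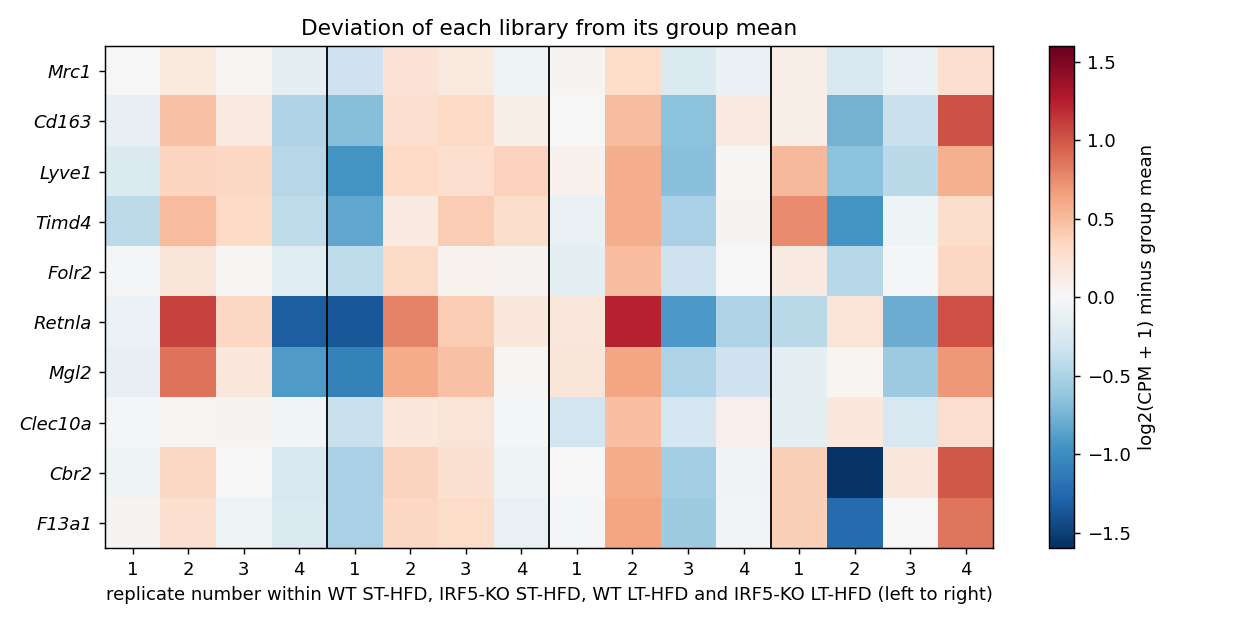
Heat map of each marker gene (rows) in each library (columns, by replicate number within the 4 groups) as log2(CPM + 1) minus the mean of its group, red above and blue below. Columns are mostly of 1 colour, with replicate 1 of IRF5-KO ST-HFD below its group mean and replicate 2 of WT LT-HFD above it for all 10 genes.

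The library order ran against that of lipid-associated macrophage genes, a set of 9 that marks the macrophages of obese fat (Trem2, Cd9, Lpl, Spp1, Gpnmb, Fabp5, Itgax, Cd63 and Lgals3). After removal of group means, all 90 pairs of a member with a lipid-associated gene correlated negatively, with a median r of -0.723. The lipoprotein lipase gene Lpl (median r of -0.788) and the tetraspanin gene Cd63 (-0.800) were among the most opposed. In each of the 4 groups, the library with the largest lipid-associated sum had the smallest summed level of the 10 markers, and the library with the smallest lipid-associated sum had the largest. In 3 of the 4 groups the whole order was reversed. The exception was WT LT-HFD, where replicate 1 was above replicate 4 in both sums (4234 against 2414 CPM of lipid-associated and 7149 against 6710 CPM of marker transcripts). In IRF5-KO ST-HFD, replicate 1 held 6709 CPM of lipid-associated and 6135 CPM of marker transcripts, and replicate 2 held 1893 and 12393 CPM. In WT LT-HFD, replicate 3 held 5624 and 5153 CPM, and replicate 2 held 2251 and 10637 CPM. Each of the 8 LT-HFD libraries had a lower marker sum than the ST-HFD library nearest to it in lipid-associated sum, as the plot of both sums shows. The 6 fibroblast genes did not order the libraries in this way, with 49 of 60 pairs above 0 and a median r of 0.156. For the macrophage identity genes 50 of 60 pairs were below 0, with a median r of -0.510. They split by gene, as Csf1r was above 0 with all 10 members (median r of 0.729) and each of the others below 0 with all 10. The relation was noticed in these data and no test was made of it.

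**Figure D5:**
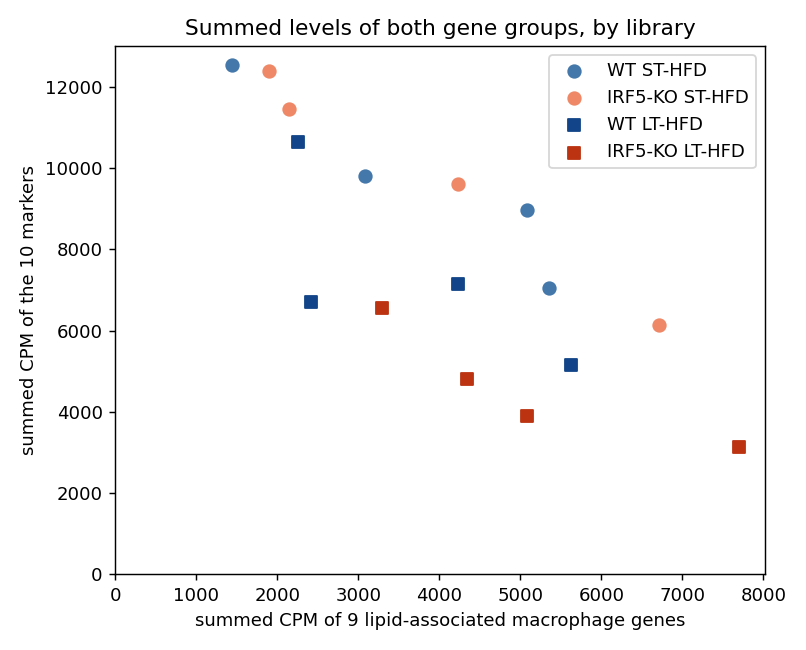
Summed CPM of the 10 marker genes against the summed CPM of 9 lipid-associated macrophage genes, both on linear axes from 0, with 1 point per library and colour and shape by group. Within each group the leftmost point is the highest and the rightmost the lowest, and each LT-HFD point lies below the ST-HFD point nearest to it along the horizontal axis.

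Beyond the members, the genes with the most similar library-to-library pattern (Pearson's r of group-centred log2(CPM + 1) over 16 libraries, among the 9755 genes whose counts averaged 20 or more) differed by marker. P2ry12, a purinergic receptor gene, and Tspan32, a tetraspanin gene, led the lists of both Cbr2 (r of 0.980 and 0.969) and F13a1 (0.973 and 0.965), followed by Alox5 for Cbr2 and Gas6 for F13a1. Ear11, a ribonuclease gene, was among the top 3 of both Retnla (0.963) and Mgl2 (0.954). The others were Rnase6 and Wdfy2 for Retnla, and Dnase1l3 and 2310035C23Rik for Mgl2. Arhgef3 was shared by Mrc1 (0.954) and Folr2 (0.943), beside Gpcpd1 and Iqgap2 for Mrc1 and Ptp4a3 and Prkd2 for Folr2. Nhsl2, Tgfbi and C1qtnf1 were nearest to Cd163, App, Jup and Cnp to Lyve1, Cep68, Ccl24 and Pfkl to Timd4, and Zfp526, Selenop and Cst3 to Clec10a.

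Of 18 other genes of the resident programme tested, 16 were below 0 in IRF5-KO against WT on LT-HFD with a median log2 fold change of -0.30, beside 49.9% of all genes. An unadjusted p under 0.05 on the lower side was reached by 6 (edgeR), beside 3.50% of all genes, but none passed. That number was 1 without replicate 2 of WT or replicate 3 of IRF5-KO, 3 without replicate 1 and 4 without replicate 2 of IRF5-KO, and 5 to 7 without each of the other libraries. The lectin genes Cd209f, Cd209g and Cd209d were at -1.11, -1.08 and -1.12 on the log2 scale, and Maf, a transcription factor of resident macrophages, at -0.49, all 4 named after their values were seen. On ST-HFD 6 of 18 were below 0, with none at an unadjusted p under 0.05. With duration in WT, 2 fell (Stab1 by 0.79 and Nrp1 by 0.32) and Selenop rose by 0.53, shares no larger than the 13.2% and 12.1% over all genes. In IRF5-KO, 6 fell, led by Dab2 (by 0.88), Stab1 (by 1.06), Maf (by 0.99) and Nrp1 (by 0.46), and Cd302 rose by 0.54, beside 17.2% of all genes called lower and 15.6% called higher.

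In the IL-4 and IL-13 receptor and signalling list, 9 of 11 genes were below 0 between genotypes on LT-HFD, and 2 of 11 on ST-HFD, beside 49.9% and 49.3% of all genes, with none called. With duration, 3 fell in WT and 5 in IRF5-KO, beside 13.2% and 17.2% of all genes. The transcription factor gene Klf4 fell by 1.30 and 1.83, and the kinase genes Tyk2 and Jak1 fell by 0.55 and 0.32 in WT and by 0.60 and 0.40 in IRF5-KO. Il4ra, the shared receptor chain, fell by 0.47 and Stat6 by 0.28 in IRF5-KO. Of 11 other IL-4 targets tested with duration, 2 rose in WT (Socs1 by 1.45 and Slc7a2 by 0.90 on the log2 scale). Over all genes 12.1% were called higher in WT. In IRF5-KO Slc7a2 rose by 1.19 and the beta-glucan receptor gene Clec7a by 0.69, beside 15.6% of all genes called higher. The chemokine gene Ccl22 fell by 1.97 in IRF5-KO, beside 17.2% called lower. These counts are near those of all genes. Between genotypes on LT-HFD, 4 of 9 tested were below 0, beside 49.9% of all genes. Ccl22 and Ccl24, at -1.25 and -1.16 on the log2 scale, had unadjusted p-values under 0.05 (edgeR), beside 3.50% of all genes lower. In the interaction 7 of 11 were below 0 with a median of -0.74, beside 51.2% of all genes. Ccl17, Ccl22 and Ccl24 had unadjusted p-values under 0.05 there (edgeR), beside 2.29% of all genes on the lower side. None passed in either comparison. Ccl24 varied with the members from library to library, with a median r of 0.915 over the 10.

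Lipid-associated genes were above 0 for 8 of 9 between genotypes on LT-HFD, with a median of 0.49, whereas 49.9% of all genes were below 0. An unadjusted p under 0.05 on the higher side was reached by 1 (Trem2, log2 0.55, edgeR unadjusted p = 0.0348), beside 2.23% of all genes. With duration 1 of 9 rose in WT (Cd63 by 0.54), a share no larger than the 12.1% of all genes called higher. In IRF5-KO 3 of 9 rose (Cd63, Cd9 and Trem2, by 0.84, 1.36 and 1.10), beside 15.6% of all genes.

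Listed markers of other cells had low summed levels, apart from those of fibroblasts. Sums of a few genes do not give a share of cells or of RNA. Summed levels over all libraries reached 77.6 CPM for blood endothelium, 75.6 CPM for serous cavity macrophages, 40.1 CPM for dendritic cells, 38.3 CPM for adipocytes, 24.9 CPM for mast cells, 18.5 CPM for mesothelium, 9.43 CPM for B cells, 6.95 CPM for eosinophils, 6.43 CPM for T and NK cells, 4.08 CPM for megakaryocytes and platelets and 2.06 CPM for neutrophils. Platelets also carry F13a1 and Pf4. Pf4, which was placed in the resident list, had group means of 260 to 322 CPM, and the part of platelet RNA in the F13a1 values was not tested. Monocyte genes summed to 62.1 to 216 CPM. With duration in IRF5-KO, Ccr2 fell by 0.80 on the log2 scale. Plac8 went the other way, from a mean of 1.78 to 5.63 CPM, and was not called. On LT-HFD Ccr2 was at 137 ± 22.0 CPM in WT and 94.4 ± 25.9 CPM in IRF5-KO (SD, n = 4), a log2 fold change of -0.55 (edgeR unadjusted p = 0.0175, adjusted p = 0.853). The part of monocyte RNA in the lower marker levels was not tested. Dendritic cell genes were below 0 for 2 of 2 tested between genotypes on LT-HFD and 0 of 3 on ST-HFD, beside 49.9% and 49.3% of all genes. In the interaction 3 of 3 were below 0, beside 51.2% of all genes. None was called, and the part of dendritic cell RNA in the marker levels was not tested. The adipocyte lipid droplet gene Cidec fell with duration in IRF5-KO by 1.06 on the log2 scale (edgeR adjusted p = 0.0484). The mast cell genes Cma1 and Tpsb2 rose with duration in both genotypes, while the sum of all 4 listed mast cell genes was at most 3.71 CPM after short feeding and 4.19 to 24.9 CPM after long feeding. The serous cavity genes split, with Gata6 rising and Prg4 falling in both genotypes. Between genotypes, no gene of any of these lists was called at either duration (edgeR adjusted p).

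Overlapping genes or shared sequence touch further members. Mrc1 holds the microRNA gene Mir511 on its own strand, which had 0 to 15 counts per library. Folr2 shares 52.6% of its 50-base stretches with the antisense gene Gm10602, which held 0 to 11 counts per library, and 12.1% of those of Cbr2 occur in Gm11771, which held 0. F13a1 is overlapped by the antisense genes Gm49144 and Gm30489. How strand entered the counting is not given in the sources used here, so reads of those antisense partners cannot be told apart from reads of the member.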

How the data were processed

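F4/80+ ATMs were magnetically sorted from the fat of WT and IRF5-KO mice, and ribodepleted, strand-marking libraries were made from total RNA with a low-input SMARTer kit (Pico v2). The authors aligned reads to mm10 with STAR 2.7.3a and deposited raw counts per gene (Ensembl gene IDs with symbols). The submitters' processing notes also name fastp 0.19.11. The annotation release and strand setting are not given in the sources used here. Libraries held 3279332 to 4958131 counts, and reads carry no molecular identifiers that were used.

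From the deposited counts, genes passing filterByExpr were tested with edgeR 4.0.16 (R 4.3.3) by quasi-likelihood F-tests after TMM scaling, with Benjamini-Hochberg adjustment over all genes tested and a threshold of 0.05. Genotype was tested within each duration (8 libraries), and duration and interaction over all 16. The study's methods name DESeq2, and DESeq2 1.42.0 was run as an alternative. Scripts were tested on simulated data first. GENCODE coordinates were joined by Ensembl ID, and 5 listed genes were found under older symbols. Where a listed symbol was on 2 rows, the row with more counts was used.

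Members and gene lists were chosen with earlier results of these data known. A pair of listed genes that are not members is not reported here and was left out of the list counts. All 10 members are named. Of other lists, genes with adjusted p under 0.05 are named, at most 5 per list and comparison in order of p, and 3 similar genes are named per member. Nothing in the labels states that libraries come from separate mice or gives a batch, so p-values measure the spread between these libraries. No pair of libraries was a duplicate. Replicate numbers recur across groups. Deviations of same-numbered libraries from their group means correlated at 0.382, 0.492, 0.182 and 0.299 on ST-HFD. On LT-HFD and across durations they were not all above 0.1. Differently numbered ST-HFD libraries ranged from -0.521 (replicate 2 of WT with replicate 1 of IRF5-KO) to 0.480 (replicate 4 of WT with the same library). A pairing on ST-HFD was therefore tried as a block but was not established.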

Additional observations from a re-analysis of the deposited data

Results flagged for a closer look

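In 1 of the 40 sets of 4 libraries (10 members in 4 groups), a library stood far from the others of its group by Dixon's ratio of gap to range. Lyve1 in replicate 1 of IRF5-KO ST-HFD was at 312 CPM against 730 to 786 CPM in the other libraries, a ratio of 0.881, above the 95% critical value for 4 samples. Chance alone marks about 1 such set in 20. The same library had the lowest level of its group for all 10 members and the largest summed level of lipid-associated macrophage genes of any ST-HFD library (6709 CPM). Without it, the log2 fold change of Lyve1 between genotypes on ST-HFD was 0.34 in place of 0.11, with an adjusted p of 0.985 (edgeR).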

How the results depend on the processing

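Each comparison was refitted under 8 or 9 other settings and without each library in turn. The number of members called between genotypes on ST-HFD, and by the interaction, stayed at 0 in every fit. On LT-HFD it was 1 (Mgl2) with DESeq2 and 1 without the filter on low counts, and 0 otherwise, also when single libraries were left out. With duration in WT, 3 members were called, 5 without the filter, 2 with upper-quartile factors or scaling to macrophage identity genes (Cd163 was lost), and 1 to 4 when single libraries were left out (1 without replicate 4 of WT LT-HFD). In IRF5-KO 8 were called, 9 with DESeq2 or without the filter (F13a1 was added), 7 with upper-quartile factors or in a fit of the IRF5-KO libraries alone (Folr2 was lost), 6 with scaling to macrophage identity genes, and 6 to 9 when single libraries were left out.

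With the replicate number as a block, 5 members in place of 8 were called with duration in IRF5-KO (Mrc1, Folr2 and Cbr2 were lost), and 2349 genes in place of 3787. Across durations the numbers do not pair the libraries. In WT, Mgl2 was added under the block (adjusted p = 0.0156, edgeR). The block changed no other member's call, and on LT-HFD 0 genes of the whole table were called under it in place of 2.

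Genes called over the whole table on LT-HFD numbered 6 with DESeq2, 6 without the filter and 1 with scaling to macrophage identity genes. On ST-HFD they numbered 2 in place of 1 with DESeq2, without the filter, over all 16 libraries and with scaling to macrophage identity genes. With that last scaling, 5018 genes in place of 2928 were called with duration in WT and 5726 in IRF5-KO.

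Log2 fold changes near 0 changed sign. On ST-HFD, Cd163 was at -0.0039 with upper-quartile factors, and Mrc1 at 0.0058 over all 16 libraries and 0.016 with scaling to macrophage identity genes. With duration in WT, F13a1 was at 0.030 with upper-quartile factors, and Mrc1, Cbr2 and F13a1 were at 0.25, 0.0079 and 0.35 with scaling to macrophage identity genes. When single libraries were left out on ST-HFD, Mrc1 ranged from -0.080 to 0.093, Cd163 from -0.13 to 0.19, Mgl2 from -0.27 to 0.31, Lyve1 from -0.021 to 0.34, Retnla from -0.17 to 0.54, Cbr2 from -0.073 to 0.19, F13a1 from -0.076 to 0.18, Folr2 from -0.033 to 0.19 and Clec10a from -0.029 to 0.13. With duration in WT, F13a1 ranged from -0.31 to 0.11 and Folr2 from -0.15 to 0.14, and in IRF5-KO Clec10a ranged from -0.041 to 0.15. None of these values was called, and the cause was not tested.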
